A study of Homo sapiens with 8 samples.

Results

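A set of 10 enzymes of drug oxidation and pyrimidine turnover was followed across 4 groups of DU145 cells. They were chosen by name from the 23391 genes of the count table: AOX1, XDH, MOCOS, DPYD, DPYS, TYMP, UPP1, CDA, TYMS and UMPS. All 10 symbols had a row of their own, and 9 of the 10 passed the filter on low counts among the 13856 genes tested. The set was drawn up because AOX1 and DPYD were lower with Esrrb and lower with DY131 in control cells. The values of the members in those comparisons are therefore given as a description, without a test.

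DU145 cells are an established line from a human prostate cancer. DU145-Esrrb cells were stably transfected with an expression vector for Esrrb, estrogen related receptor beta, and DU145-pc3.1 control cells carried the empty pcDNA3.1-zeo vector. Biological replicates of the transfected cells were pooled for each line after Zeocine selection, so a difference between the lines is one between these pools. Cells of both lines, in medium with charcoal-stripped serum, were left untreated or were given 3 μM DY131, a synthetic ligand of Esrrb and of its relative Esrrg. The length of the treatment was not given in the sources used here. Each of the 4 groups had 2 libraries, and a group mean below is over these 2. The study describes them as biological replicates of the stably transfected cells, and p-values measure only the spread between such libraries. That spread was uneven. Against counting error, the chi-square per degree of freedom was 2.70 in DU145-pc3.1, 1.84 in DU145-Esrrb, 7.49 in treated DU145-pc3.1 and 1.31 in treated DU145-Esrrb cells. The fit shares a spread per gene over all groups.

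Aldehyde oxidase (AOX1) and xanthine dehydrogenase (XDH) are molybdenum hydroxylases, which work only after the sulfurase MOCOS has put sulfur on their molybdenum cofactor. AOX1 oxidizes many drugs and aldehydes, and XDH makes uric acid from purines. Uracil, thymine and the drug fluorouracil are broken down first by dihydropyrimidine dehydrogenase (DPYD) and then by dihydropyrimidinase (DPYS). UMPS, UPP1 and TYMP carry pyrimidines or drug precursors between bases, nucleosides and nucleotides, and CDA deaminates cytidine. Thymidylate synthase (TYMS) makes the thymidine nucleotide precursor of DNA and is the enzyme that active fluorouracil blocks.

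The stretches before the starts of AOX1 and DPYD are shown because these genes were low in the same groups and Esrrb binds DNA at a short element. They were taken from RefSeq on GRCh38.p14, which listed a promoter window for 9 of the 10 members and none for DPYS. Both are written 5′ to 3′ on the strand of the gene. That of AOX1, chr2:200585764-200585867 on the plus strand, holds 104 bases and stops where GENCODE 29 places the first exon. That of DPYD, chr1:97921060-97921309 on the minus strand, holds 250 bases.
AOX1: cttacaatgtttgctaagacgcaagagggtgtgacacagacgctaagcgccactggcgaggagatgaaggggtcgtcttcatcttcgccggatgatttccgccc
DPYD: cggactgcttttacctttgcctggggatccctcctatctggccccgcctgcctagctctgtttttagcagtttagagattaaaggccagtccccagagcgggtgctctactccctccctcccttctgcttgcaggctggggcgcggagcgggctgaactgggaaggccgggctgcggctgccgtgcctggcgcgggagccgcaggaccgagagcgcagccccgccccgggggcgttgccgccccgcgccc
The core letters of the estrogen related receptor element, AAGGTCA, were searched on both strands in the 250 bases before each RefSeq start. For AOX1 the rest of this window lies in the first exon of GENCODE 29, and the window of DPYD lies inside the span of a longer GENCODE transcript of that gene. No match was found for any of the 9 members, so no letters are in capitals above. Of all 35116 RefSeq windows of this length, 3.44% held the core, and 0.32% held the longer form TCAAGGTCA, which contains it. This says only that these letters are not in these windows.

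The total counts per library ranged from 7858743 to 11551690, with the smallest 2 libraries in DY131-treated DU145-Esrrb cells. ESRRB had 104 and 99 counts in DU145-Esrrb cells and 105 and 143 counts with DY131, against 0 to 3 counts in the control libraries, so every library carried the receptor its label states. With DY131 in DU145-Esrrb cells ESRRB itself was higher, at 14.9 ± 1.75 against 8.97 ± 0.196 cpm (SD, n = 2), a log2 change of 0.74 ± 0.19 (SE, adjusted p = 0.00315), and the part of this in the changes below was not tested. Levels are given as cpm, the counts scaled by the normalized library size. The epithelial keratin KRT8 was at 1064 to 1627 cpm, whereas KLK3 and KLK2, genes of differentiated prostate luminal cells, were at 0 in all 8 libraries. Another luminal marker, TMPRSS2, reached 0.130 cpm. The hepatocyte marker TTR and the leukocyte marker CD3E were at 0. In bulk RNA, fewer cells with a transcript and less transcript per cell cannot be told apart.

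AOX1 had the widest fold range between group means among the tested members. In untreated DU145-pc3.1 cells it stood at 64.2 and 72.5 cpm, from 673 and 823 counts. It was at 5.43 and 6.81 cpm in DU145-Esrrb cells, at 3.74 and 7.44 cpm in DY131-treated DU145-pc3.1 cells and at 4.69 and 4.18 cpm in DY131-treated DU145-Esrrb cells. The untreated control libraries thus lay far above all 6 other libraries. Among those 6, the treated control libraries spanned the values of the others, and the treated DU145-Esrrb libraries were just below the untreated ones. On GRCh38, AOX1 spans chromosome 2 from 200585868 to 200677064, and no 50-base window of its transcript was shared with another gene.

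The log2 fold change of AOX1 was -3.49 ± 0.17 (SE) with Esrrb in untreated cells, which is 11.2-fold lower. With DY131 in DU145-pc3.1 cells it was -3.62 ± 0.17 (SE), 12.3-fold lower. These comparisons chose the gene and share the control libraries, so they are a description. In cells that already had Esrrb, DY131 gave a log2 fold change of -0.46 with a 95% interval of -1.04 to 0.12 (adjusted p = 0.157). In cells that already had DY131, Esrrb gave -0.33 with an interval of -0.92 to 0.27 (adjusted p = 0.359). Neither passed the test. These comparisons share libraries with those that chose AOX1, and their reference groups are those in which it was chosen as low. Their values are therefore not set against the changes that each condition gave alone. The difference between the pools in the log2 change with DY131 was 3.16 ± 0.36 (SE). It is built from the values that chose AOX1, so it is given without a test and nothing is read from it. The change with Esrrb in treated cells leaned on 1 library, since without replicate 1 of DY131-treated DU145-pc3.1 cells it was -0.76 (adjusted p = 0.00936). Without that library the change with DY131 in DU145-Esrrb cells was -0.47 (adjusted p = 0.0494), and it was -0.65 (adjusted p = 0.0452) once length and GC content were corrected for. A fit of the 4 libraries compared also gave -0.47 (adjusted p = 0.0467).

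**Figure D1:**
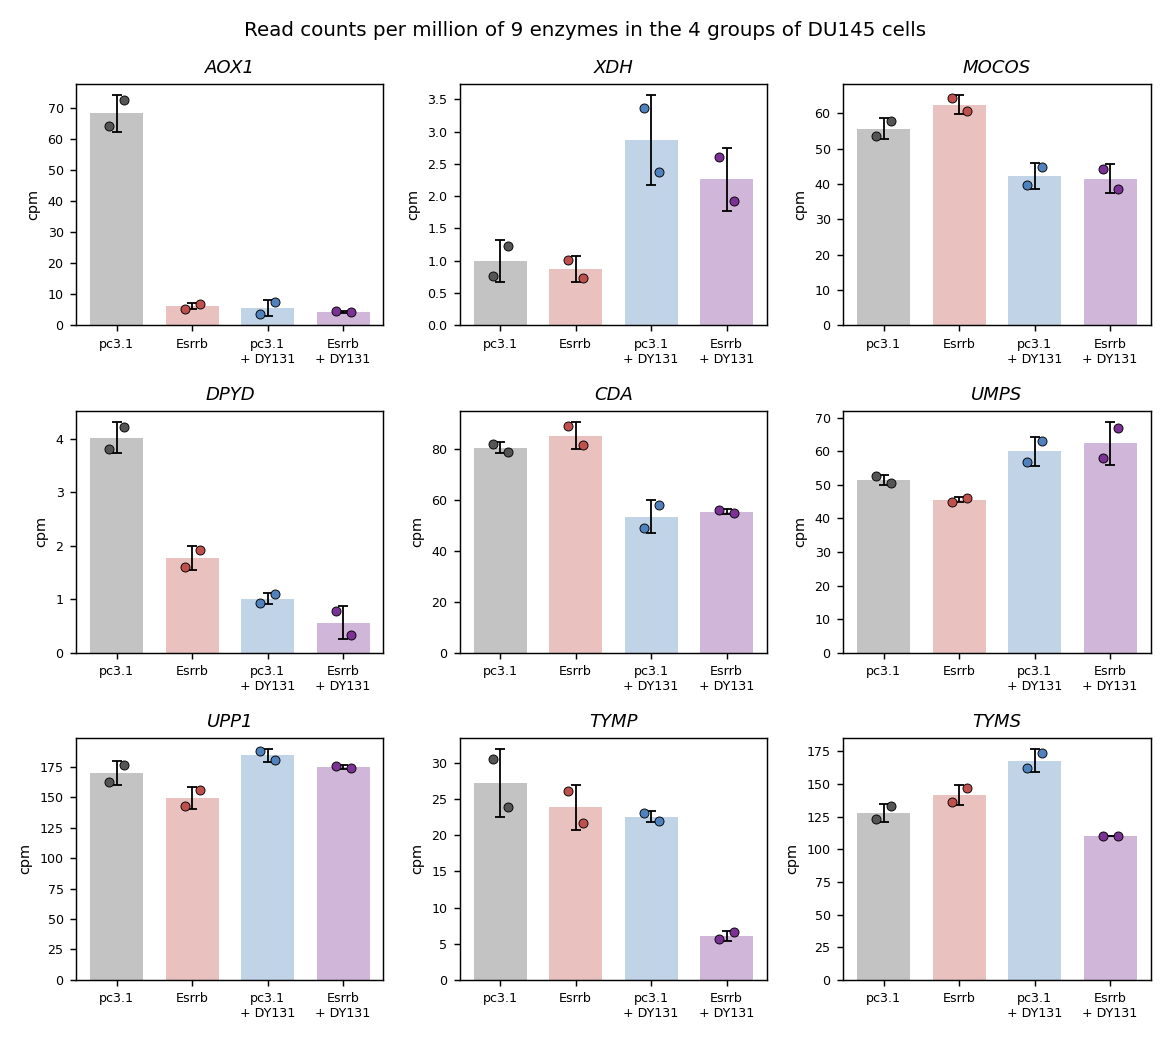
Each panel shows one enzyme, with cpm on the vertical axis and the 4 groups along the horizontal axis; bars are means, whiskers the SD and dots the 2 libraries of a group. AOX1 is high only in untreated DU145-pc3.1 cells (64.2 and 72.5 cpm), DPYD steps down from 4.02 to 0.561 cpm across the groups, and TYMP is low only in DY131-treated DU145-Esrrb cells (5.61 and 6.56 cpm).

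XDH, the relative of AOX1, was barely counted and had another pattern. It had 8 and 14 counts in DU145-pc3.1 cells and 12 and 8 in DU145-Esrrb cells, against 36 and 24 in DY131-treated DU145-pc3.1 cells and 20 and 17 in DY131-treated DU145-Esrrb cells. All 4 treated libraries, at 1.92 to 3.36 cpm, lay above all 4 untreated libraries, at 0.736 to 1.23 cpm. Only 2 of the untreated libraries reached the filter of 1 cpm, so the gene was near the limit of this depth without DY131. In DU145-Esrrb cells, XDH rose with DY131 by a log2 fold change of 1.34 ± 0.41 (SE), 2.52-fold (adjusted p = 0.0108), and in DU145-pc3.1 cells the change was 1.51 ± 0.36 (SE), as a description. The difference between these changes was -0.17, with a 95% interval of -1.39 to 1.05 (adjusted p = 0.845). In DU145-Esrrb cells the change was 1.36 with DESeq2 (adjusted p = 0.0596), 1.12 without replicate 2 of the untreated cells (adjusted p = 0.0731) and 1.11 without the first column of the treated ones (adjusted p = 0.0936). In DU145-pc3.1 cells it was 1.22 and no longer called without replicate 1 of the untreated cells.

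MOCOS, the sulfurase for both oxidases, was well expressed. Its levels were 53.5 and 57.8 cpm in DU145-pc3.1 cells, 64.3 and 60.5 cpm in DU145-Esrrb cells, 39.7 and 44.8 cpm in treated DU145-pc3.1 cells and 44.3 and 38.5 cpm in treated DU145-Esrrb cells. The treated libraries were all below the untreated ones. In DU145-Esrrb cells MOCOS fell with DY131 by 0.59 on the log2 scale (SE 0.09, adjusted p = 4.41e-05), and the value in DU145-pc3.1 cells was -0.40 ± 0.09 (SE). Esrrb in treated cells gave -0.03 with an interval of -0.23 to 0.17 (adjusted p = 0.808). MOCOS was thus not low where AOX1 was low in untreated DU145-Esrrb cells.

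DPYD, the first and rate-limiting enzyme of uracil and fluorouracil breakdown, was low in every group. It had 40 and 48 counts in DU145-pc3.1 cells, 19 and 21 in DU145-Esrrb cells, 10 and 11 in treated DU145-pc3.1 cells, and 6 and 3 in treated DU145-Esrrb cells. In cpm these were 3.82 and 4.23, then 1.61 and 1.93, then 0.935 and 1.09, and last 0.782 and 0.339. No group overlapped another in this order, but the lowest library was at 3 counts, the limit that a count of 0 allows. Of the 5 libraries in which DPYD reached the filter of 1 cpm, 4 were untreated, so mainly the groups where it was high brought it into the test. On GRCh38, DPYD spans chromosome 1 from 97077743 to 97995000, and 1.5% of its transcript windows matched the antisense gene DPYD-AS1.

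As a description, the log2 fold change of DPYD was -1.18 ± 0.28 (SE) with Esrrb in untreated cells and -1.98 ± 0.32 (SE) with DY131 in DU145-pc3.1 cells. The first of these was no longer called with DESeq2 or when any one of the 4 libraries compared was left out, which moved the value between -1.31 and -1.06. DPYD was also lower with DY131 in DU145-Esrrb cells, by 1.67 on the log2 scale (SE 0.46, 3.19-fold). This too is a description, since the comparison shares the untreated DU145-Esrrb libraries with those that chose DPYD. Those untreated libraries also helped it through the filter, while both treated DU145-Esrrb libraries were below the filter level. Without the second column of treated DU145-Esrrb cells, which held 3 counts, the value was -1.17. Esrrb in treated cells gave -0.87 with an interval of -1.99 to 0.24 (adjusted p = 0.18). The difference between the pools in the change with DY131 was 0.31 ± 0.65 (SE), given without a test because values that chose DPYD enter it.

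DPYS, the next enzyme of the same route and a gene known mainly from liver and kidney, had 0 counts in all 8 libraries. With a limit of 3 counts, this allows a level of up to 0.260 to 0.382 cpm, depending on the library, for counting error alone.

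TYMP, thymidine phosphorylase, which splits thymidine and completes the activation of the fluorouracil precursor capecitabine, was low in one group. It was at 30.5 and 23.9 cpm in DU145-pc3.1 cells, 26.1 and 21.7 cpm in DU145-Esrrb cells and 23.1 and 22.0 cpm in treated DU145-pc3.1 cells. In treated DU145-Esrrb cells it was at 5.61 and 6.56 cpm, from 43 and 58 counts. Those 2 libraries lay below all 6 others, which ranged from 21.7 to 30.5 cpm.

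With DY131 in DU145-Esrrb cells TYMP fell by 1.97 on the log2 scale (SE 0.17), 3.91-fold (adjusted p = 1.46e-07). Esrrb in treated cells gave -1.88 ± 0.17 (SE), 3.69-fold lower (adjusted p = 4.70e-07). In DU145-pc3.1 cells DY131 gave -0.27 ± 0.13 (SE), and Esrrb without DY131 gave -0.18 ± 0.13 (SE), both as a description. The changes with DY131 in the 2 pools differed by -1.70 ± 0.22 (SE, adjusted p = 3.65e-05). On GRCh38, TYMP spans chromosome 22 from 50525752 to 50530056, and 21.8% of its windows matched SCO2 or ODF3B on the same strand, so its count may hold reads of those genes. Of the windows of SCO2, a mitochondrial copper chaperone gene, 95.3% matched other gene entries on the same strand, among them TYMP and a second entry for SCO2, so its count is not separate from theirs. SCO2 had means of 22.2, 21.0, 22.0 and 22.2 cpm in the 4 groups in the order above, with a log2 change with DY131 in DU145-Esrrb cells of 0.08 (adjusted p = 0.556).

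**Figure D2:**
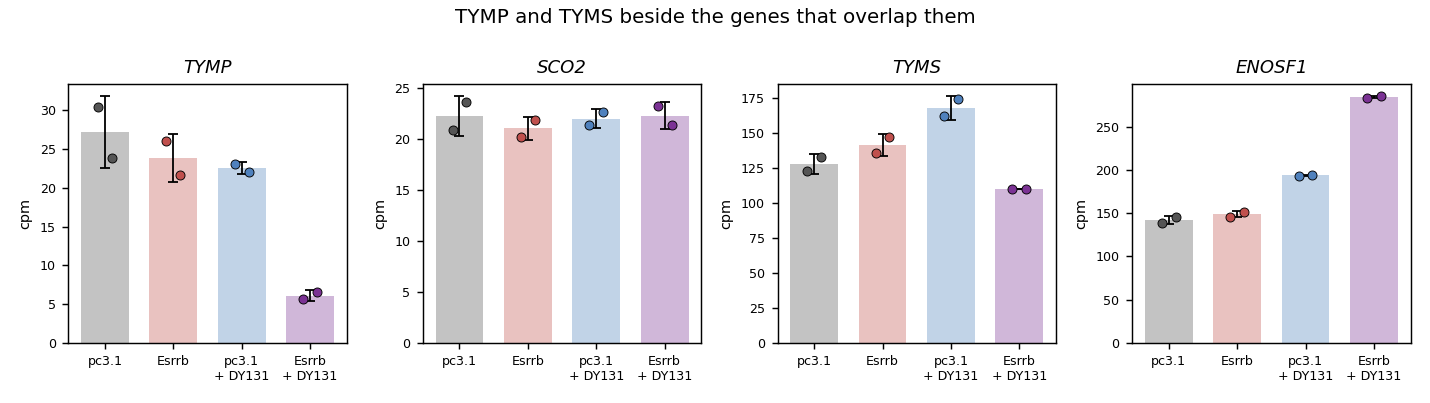
Cpm of TYMP and TYMS beside SCO2 and ENOSF1, genes whose transcripts overlap theirs, in the 4 groups; bars are means, whiskers the SD and dots the 2 libraries. TYMP drops to 6.08 cpm in DY131-treated DU145-Esrrb cells while SCO2 stays at 22.2 cpm, and ENOSF1 is highest, at 284 cpm, where TYMS is lowest, at 110 cpm.

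TYMS had changes of opposite sign with DY131 in the 2 pools. Its levels were 123 and 133 cpm in DU145-pc3.1 cells and 136 and 147 cpm in DU145-Esrrb cells. With DY131 they were 162 and 174 cpm in DU145-pc3.1 cells and 110 in both DU145-Esrrb libraries. Treated control cells were therefore the highest group and treated DU145-Esrrb cells the lowest, with no overlap.

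The log2 fold change of TYMS with DY131 was -0.37 ± 0.07 (SE, adjusted p = 2.61e-04) in DU145-Esrrb cells, and it was 0.39 ± 0.07 (SE) in DU145-pc3.1 cells, as a description. The difference between the 2 was -0.76 ± 0.09 (SE, adjusted p = 2.72e-05). Esrrb in treated cells lowered the count by 1.53-fold, a log2 change of -0.61 ± 0.07 (SE, adjusted p = 2.66e-06). These counts are uncertain in origin, since 54.8% of the windows of TYMS matched antisense transcripts, among them ENOSF1, and although the library kit marks strand, whether the authors' counting used it was not given in the sources used here. The ENOSF1 transcript matched to the counted row shared 0.4% of its own windows with any other gene and none with TYMS. ENOSF1, which runs against the end of TYMS on chromosome 18, had means of 142, 149, 194 and 284 cpm in the same order of groups. It rose with DY131 in DU145-Esrrb cells by a log2 change of 0.94 ± 0.06 (SE, adjusted p = 2.81e-09), opposite to TYMS, and its change differed between the pools by 0.49 (adjusted p = 2.62e-04).

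UPP1, uridine phosphorylase, changed little. It was at 163 and 177 cpm in DU145-pc3.1 cells, 143 and 156 cpm in DU145-Esrrb cells, 188 and 181 cpm in treated DU145-pc3.1 cells and 176 and 174 cpm in treated DU145-Esrrb cells. DY131 raised it in DU145-Esrrb cells by a log2 change of 0.23 ± 0.06 (SE, 1.17-fold, adjusted p = 0.00599), which missed the threshold without replicate 1 of untreated DU145-Esrrb cells (0.17, adjusted p = 0.103). Esrrb in treated cells gave -0.08 with an interval of -0.21 to 0.06 (adjusted p = 0.342).

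CDA, cytidine deaminase, which also inactivates the drugs cytarabine and gemcitabine, fell with DY131 in DU145-Esrrb cells. It was at 81.9 and 78.8 cpm in DU145-pc3.1 cells and 88.8 and 81.4 cpm in DU145-Esrrb cells, against 48.7 and 58.0 cpm and 56.1 and 54.6 cpm with DY131. The treated libraries were all below the untreated ones. The log2 change with DY131 was -0.62 ± 0.08 (SE, 1.54-fold, adjusted p = 1.46e-05) in DU145-Esrrb cells and -0.59 ± 0.08 (SE) in DU145-pc3.1 cells. Their difference was -0.03 with an interval of -0.28 to 0.22 (adjusted p = 0.868).

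UMPS, which makes uridine monophosphate at the end of de novo synthesis and can activate fluorouracil directly, rose with DY131 in DU145-Esrrb cells. It was at 52.6 and 50.5 cpm in DU145-pc3.1 cells, 45.0 and 46.2 cpm in DU145-Esrrb cells, 56.9 and 63.0 cpm in treated DU145-pc3.1 cells and 57.9 and 66.8 cpm in treated DU145-Esrrb cells. In DU145-Esrrb cells the log2 change was 0.46 ± 0.09 (SE, 1.37-fold, adjusted p = 3.11e-04), and in DU145-pc3.1 cells it was 0.22 ± 0.08 (SE). The difference between the pools was 0.24 with an interval of -0.02 to 0.49 (adjusted p = 0.142), and without replicate 2 of treated DU145-pc3.1 cells it was 0.31 (adjusted p = 0.0309).

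**Figure D3:**
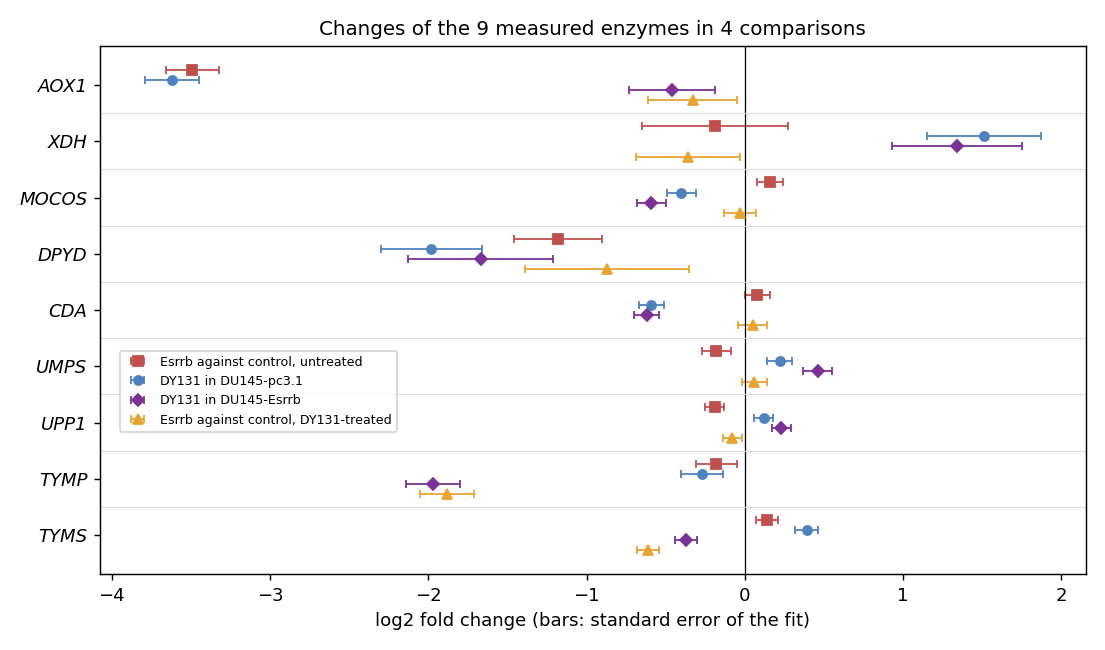
Log2 fold changes on the horizontal axis for the 9 measured enzymes, with one marker per comparison and bars for the standard error. AOX1 is far left in the comparisons against untreated control cells (-3.49 and -3.62), DPYD is left in all 4, and TYMP is left only in those with treated DU145-Esrrb cells (-1.97 and -1.88).

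Genes were counted as passed at an adjusted p under 0.05 and as called when the log2 fold change was also at least 1 in size. With DY131 in DU145-Esrrb cells, 8 of the 9 tested members passed, 3 up and 5 down, where 58.7% of all tested genes passed. Called were XDH, DPYD and TYMP, where 12.0% of all tested genes were called. DPYD reached the filter mainly through untreated libraries, so its place in these counts is a description. With Esrrb in treated cells, 2 of the 9 passed, TYMP and TYMS, and TYMP was called, against 50.4% and 8.21% of all genes. In the comparison of the changes with DY131 between the pools, TYMP and TYMS passed among the 7 members other than AOX1 and DPYD, where 33.7% of all genes passed and 6.28% were called. In the comparisons that chose the set, 2 members passed with Esrrb in untreated cells, AOX1 and DPYD, both called, beside 4.18% passed and 0.577% called among all genes. With DY131 in DU145-pc3.1 cells 6 members passed, and AOX1, DPYD and XDH were called, beside 37.4% and 4.19% of all genes. For AOX1 and DPYD these counts were fixed by the choice of the set, and nothing is read from them.

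Per kilobase of transcript, the scale on which genes can be compared, UPP1 had the highest level in untreated DU145-pc3.1 cells, at 124 ± 7.52 cpm per kilobase (SD, n = 2). CDA, at 83.4 ± 2.25, and TYMS, at 77.0 ± 3.88, followed. TYMP was at 16.7 ± 2.86 and AOX1 at 13.5 ± 1.15, with overlapping SDs. MOCOS was at 9.04 ± 0.495 and UMPS at 7.65 ± 0.223, while DPYD was at 0.912 ± 0.0656 and XDH at 0.175 ± 0.0583. In treated DU145-Esrrb cells AOX1 was at 0.875 ± 0.0712, within 1 SD of the level of DPYD in control cells. With the longest annotated transcript the level of UPP1 in control cells was 61.1 cpm per kilobase, below CDA and TYMS, and that of TYMP was 13.3, so these places in the order depend on the transcript.

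Gene structure moved with the comparisons that hold treated DU145-Esrrb libraries. Across 13665 genes, which are not independent, the share of 50-base windows crossing an exon junction had a Spearman correlation of -0.374 with the log2 change with DY131 in DU145-Esrrb cells and -0.471 with the change with Esrrb in treated cells. The correlation was -0.458 with the difference between the pools in the change with DY131. It was 0.00675 with DY131 in DU145-pc3.1 cells and -0.0328 with Esrrb in untreated cells. AOX1, XDH and UPP1, at percentiles 93.6, 90.1 and 88.9 of this share, and TYMP, at 85.8, were junction-rich, and UMPS, at 13.5, was not. With a correction for this share, DY131 in DU145-Esrrb cells gave log2 changes of -1.67 for TYMP, -0.31 for TYMS, 1.71 for XDH, -1.47 for DPYD and 0.01 for AOX1. It moved the change of UPP1 from 0.23 to 0.58 and that of UMPS from 0.46 to 0.24. The difference between the pools for UPP1, 0.12 (adjusted p = 0.349) without the correction, was 0.48 with it (adjusted p = 0.0016). The part of gene structure in the uncorrected values was not tested further.

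The genes whose pattern over the 8 libraries was most like that of AOX1 were DSG3, GYS1, FGF11, FRMD4B and PLSCR3, by Pearson's correlation of log2(cpm + 1) over 13388 genes, with r from 0.9540 to 0.9759. DSG3, the desmosomal cadherin desmoglein 3, had means of 41.5 cpm in DU145-pc3.1 cells and 0.881, 0.712 and 0.609 cpm in the other groups. GYS1, muscle-type glycogen synthase, had the same shape in a narrow range, 92.0 cpm against 80.8 to 83.0 cpm. Most like DPYD were ALDH1L2, MPZL2, CEP44, BNIP3 and PGM1, with r from 0.9728 to 0.9897. ALDH1L2, a mitochondrial folate enzyme, stepped down from 36.7 to 20.6, 16.7 and 13.9 cpm in the same order of groups as DPYD. AOX1 and DPYD themselves had r = 0.9092. These correlations follow the 4 group means and are a description.

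The surrounding pathways were described with 58 further genes in 6 lists, of which 49 were tested. With Esrrb in untreated cells, 1 passed up and 2 down, where 4.18% of all genes passed, and none was called by edgeR. An unadjusted p under 0.05 was found for 10, but the share of all genes at that threshold is not given, so nothing is read from this count. DY131 in DU145-pc3.1 cells raised 17 and lowered 9, of which 1 was called, where 37.4% of all genes passed and 4.19% were called. In DU145-Esrrb cells DY131 raised 19 and lowered 20, where 58.7% of all genes passed. The median log2 change over the 49 was 0.07 in DU145-pc3.1 cells and -0.04 in DU145-Esrrb cells, where the median of all tested genes was 0.00 in both.

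**Figure D4:**
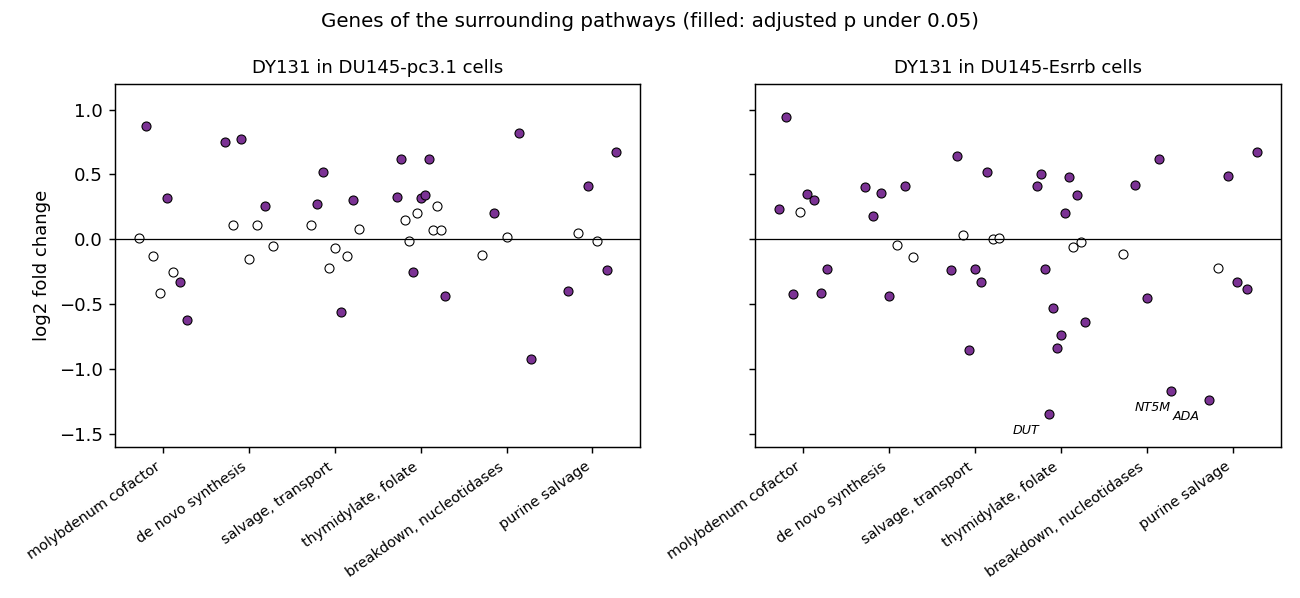
Log2 fold changes with DY131 of pathway genes by list, in DU145-pc3.1 cells (left) and DU145-Esrrb cells (right); each dot is a gene, and filled dots passed at an adjusted p under 0.05. The lowest genes on the right are DUT (-1.35), ADA (-1.24) and NT5M (-1.17), which are named in the plot.

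With DY131 in DU145-Esrrb cells 12.0% of all genes were called, 413 up and 1253 down. Of the 49 pathway genes 4 were called, all lower. Among them DUT, which removes dUTP and supplies the substrate of TYMS, was at a mean of 133 ± 3.74 cpm (SD, n = 2) without and 52.5 ± 3.15 cpm (SD, n = 2) with DY131, a log2 change of -1.35 ± 0.10 (SE, adjusted p = 2.00e-08). In DU145-pc3.1 cells DUT stood at 118 and 132 cpm without and 111 and 137 cpm with DY131, so only treated DU145-Esrrb libraries were low. ADA, adenosine deaminase, had a log2 change of -1.24 ± 0.17 (SE, adjusted p = 1.37e-05), and -0.65 with the correction for exon junctions, which is under the fold threshold. NT5M, a mitochondrial deoxynucleotidase, had -1.17 ± 0.28 (SE, adjusted p = 0.00231), and -0.87 once length and GC content were corrected for, also under that threshold. With Esrrb in treated cells 8 of the 49 passed up and 17 down, where 50.4% of all genes passed, and DUT was called, at -1.24 ± 0.10 (SE, adjusted p = 8.33e-08).

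The list around TYMS, thymidylate, folate and deoxynucleotide supply, held the 3 called differences between the pools among the 49, where 6.28% of all genes were called. Of all genes called in this comparison, 213 were up and 657 down. The change with DY131 differed by -1.33 ± 0.13 (SE, adjusted p = 2.44e-06) for DUT, by -1.06 ± 0.08 (SE, adjusted p = 2.19e-07) for the folate enzyme MTHFD1 and by -1.04 ± 0.14 (SE, adjusted p = 5.52e-05) for GGH, which trims folate polyglutamates. In all, 4 of the 14 tested genes of that list passed this comparison, all toward lower values in DU145-Esrrb cells. Over the 49, 5 passed up and 11 down, where 33.7% of all genes passed. The called count over the 49 was near the share of all genes, so nothing particular to the list is read from it. MTHFD1 was at 211 and 214 cpm in untreated and 128 and 127 cpm in treated DU145-Esrrb cells, whereas the treated DU145-pc3.1 libraries were at 245 and 252 cpm, above the 192 and 207 cpm without DY131. With the correction for exon junctions the difference was -1.33 for DUT, -0.81 for GGH and -0.24 for MTHFD1, so DUT alone of the 3 was called. The part of gene structure in the uncorrected values of MTHFD1 was not tested further.

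Counts by list with DY131 in DU145-Esrrb cells are to be read against the 58.7% of all genes that passed. Among the 8 genes of the molybdenum cofactor and its other enzymes, 4 passed up and 3 down. MARC1, a further molybdenum enzyme, was found by its RefSeq identifier because its symbol had been turned into a date in the table, and it rose by 0.94 ± 0.17 (SE, log2, adjusted p = 2.29e-04) in DU145-Esrrb cells and by 0.87 ± 0.18 (SE, log2, adjusted p = 0.0017) in DU145-pc3.1 cells, a value named here after it was seen. Of the 5 tested genes of pyrimidine breakdown and nucleotidases, 2 passed up and 2 down with DY131 in DU145-Esrrb cells. The breakdown enzymes after DPYS, UPB1 and AGXT2, did not pass the filter on low counts, so of the route from uracil onward only DPYD was measurable. For de novo synthesis and nucleotide kinases 4 of 7 passed up and 1 down, for salvage and nucleoside transport 2 of 9 up and 4 down, and for purine salvage and breakdown 2 of 6 up and 3 down.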

How the data were processed

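The members and the pathway lists were chosen with earlier results of these data known. Per the labels and the study's methods, polyadenylated RNA was sequenced as 50-base single reads. Reads were trimmed with the FASTX-Toolkit, mapped to hg18 with TopHat2 and assigned to genes by the in-house program MULTICOM-MAP, and the authors deposited raw read counts per gene, not normalized. How strand and reads with several positions were treated is not given in the sources used here. Such reads can shift counts between overlapping genes.

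A gene was tested if it reached 1 cpm in 2 or more libraries. All 8 libraries, in 4 groups, entered one edgeR quasi-likelihood fit with TMM scaling (R 4.3.3, edgeR 4.0.16, limma 3.58.1), with Benjamini-Hochberg adjustment over the 13856 genes. The steps were tested on simulated data. Alternatives were edgeR's exact test, DESeq2 1.42.0, other scaling and filters, only the libraries compared, the replicate number as a block, corrections for gene structure, and leaving out each library. The columns of the treated DU145-Esrrb libraries are headed alike and so have no replicate number. All members were named, and of the pathway lists up to 3 called genes per direction and comparison. Some genes on the lists enter the counts but are not reported here by name, and 1 of them is left out of the plot of pathway genes. Gene positions, transcript lengths and shared windows come from GENCODE 29 on GRCh38, not from hg18. Promoters were read with pandas 2.3.3 in Python 3.11.15, and figures drawn with matplotlib 3.10.9. Counting limits leave out all but counting error, since PCR copies of a molecule cannot be told apart here.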

Additional observations from a re-analysis of the deposited data

Results flagged for a closer look

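The change with DY131 differed between the 2 pools, by the test of that difference in edgeR's fit, for 7 genes named above. In this comparison 33.7% of all tested genes passed, and of the 49 tested pathway genes 5 passed up and 11 down. The 7 are therefore a selection, and a difference between the pools is not particular to them. It was lower in DU145-Esrrb cells for TYMP (-1.70, adjusted p = 3.65e-05), TYMS (-0.76, adjusted p = 2.72e-05), DUT (-1.33, adjusted p = 2.44e-06), MTHFD1 (-1.06, adjusted p = 2.19e-07), GGH (-1.04, adjusted p = 5.52e-05) and ADA (-0.84, adjusted p = 0.00868), all as differences of log2 fold changes. For ENOSF1, which overlaps TYMS in antisense, the difference was 0.49 (adjusted p = 2.62e-04), higher in DU145-Esrrb cells. Windows of TYMS match ENOSF1 transcripts, though not the one transcript matched to the counted ENOSF1 row, so reads of one may be counted on the other if strand was not used. With the correction for exon junctions the difference for MTHFD1 was -0.24 (adjusted p = 0.05). AOX1 and DPYD are not listed, because the libraries behind this test also chose them.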

How the results depend on the processing

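With 2 libraries per group, low genes were at the limit of this depth. The number of members called with Esrrb in untreated cells went from 2 to 1 with DESeq2 and with a filter of 10 counts in every library, and leaving out one library gave 1 to 2. That filter, which removes XDH and DPYD, gave 1 called member with DY131 in either pool in place of 3. Without a fold change threshold the members counted were 6 with DY131 in DU145-pc3.1 cells, 8 in DU145-Esrrb cells and 2 with Esrrb in treated cells, and the pathway genes were 3, 26, 39, 25 and, for the difference between the pools, 16. Pathway genes called with DY131 in DU145-pc3.1 cells were 2 without a filter in place of 1, and 1 to 2 without one library. With Esrrb in treated cells they were 2 with library size alone or only the libraries compared, 3 with the filter of 10 counts or the length and GC correction, and 1 to 3 without one library. Among differences between the pools, 1 pathway gene was called with the junction correction in place of 3. The change of UPP1 with Esrrb in treated cells turned from -0.08 to 0.27 under that correction (adjusted p = 0.00331). For single members, 740 values kept their side of the threshold, 20 newly passed and 11 no longer passed. Some of the 740 that did not pass changed sign, among them AOX1 with DY131 in DU145-Esrrb cells under the junction correction. The cause of these shifts was not tested, apart from the removed genes. The replicate numbers did not pair the libraries (correlations of deviations 0.0917, 0.0229 and -0.0685 between same-numbered libraries), and with the replicate block 2 members were called with Esrrb in untreated cells and 3 with DY131 in DU145-pc3.1 cells, as without it.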
